A study of Mus musculus with 8 samples.

Results

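The genes described here encode the aminoacyl-tRNA synthetases, the enzymes that join each amino acid to its tRNA. They were chosen by name: 20 genes of the cytosolic enzymes and 16 genes of the mitochondrial enzymes, whose symbols end in 2. All 36 were on the array, passed the filter and were well above background on all 8 arrays, and they form 36 of the 21528 genes tested. RNA came from J774.1, a macrophage-like line of BALB/c mice, and was hybridised to single-colour Agilent arrays. The cells had received isorhamnetin (10 µM), tamarixetin (10 µM) or Torin1 (1 µM) for 6 h, or were controls, with 2 biological replicates and 1 array for each. The sources used here do not say whether the controls received the vehicle. Isorhamnetin and tamarixetin are isomeric flavonols, each a quercetin with a methyl group on a hydroxyl of its B ring, at neighbouring positions. Torin1 blocks the kinase mTOR at its ATP site.

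A cytosolic synthetase charges the tRNAs used by ribosomes in the cytosol, and a mitochondrial synthetase, also encoded in the nucleus, charges the tRNAs that mitochondria make for their own ribosomes. Several cytosolic enzymes are held in the multisynthetase complex by the scaffold proteins Aimp1, Aimp2 and Eef1e1, and the others work outside it. Gars and Kars each encode the enzyme of both compartments and are counted here with the cytosolic genes. In mammals the transcription factor ATF4, which acts when amino acids are scarce, binds C/EBP-ATF response elements and is known to raise many cytosolic synthetase genes, and mTOR complex 1 is known to raise ATF4.

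Promoter sequences were read for 27 members from RefSeq (GRCm38.p6), each running from 250 bases before to 50 bases after the start site. The table holds 28 such promoters of members, 2 of them of Aars2. Cars, Hars, Lars, Nars, Rars, Vars, Wars, Hars2 and Pars2 were not matched. The 6 printed belong to the matched members with the largest called changes with Torin1, so that the windows can be set beside the values below. They are Yars (chr4:129189653-129189952, plus strand), Cars2 (chr8:11550722-11551021, minus strand), Aars (chr8:111033592-111033891, plus strand), Gars (chr6:55037751-55038050, plus strand), Tars (chr15:11399609-11399908, minus strand) and Iars (chr13:49681880-49682179, plus strand). Capitals mark matches to TGATGNAA, the core of the C/EBP-ATF response element, to TGACNNNGC, the core of the antioxidant response element bound by NRF2, and to CACGTG, the E-box, on either strand.
Yars: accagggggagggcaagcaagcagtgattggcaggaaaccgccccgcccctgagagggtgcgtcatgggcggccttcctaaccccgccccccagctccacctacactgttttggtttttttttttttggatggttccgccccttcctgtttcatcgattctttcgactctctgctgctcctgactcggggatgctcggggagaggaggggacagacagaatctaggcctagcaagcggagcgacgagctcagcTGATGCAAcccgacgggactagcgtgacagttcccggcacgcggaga
Cars2: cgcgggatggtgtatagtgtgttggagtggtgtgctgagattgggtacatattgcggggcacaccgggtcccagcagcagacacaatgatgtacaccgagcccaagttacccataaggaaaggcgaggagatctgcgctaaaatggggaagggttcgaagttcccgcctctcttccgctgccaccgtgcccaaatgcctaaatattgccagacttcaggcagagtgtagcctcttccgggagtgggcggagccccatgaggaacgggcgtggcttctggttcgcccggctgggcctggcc
Aars: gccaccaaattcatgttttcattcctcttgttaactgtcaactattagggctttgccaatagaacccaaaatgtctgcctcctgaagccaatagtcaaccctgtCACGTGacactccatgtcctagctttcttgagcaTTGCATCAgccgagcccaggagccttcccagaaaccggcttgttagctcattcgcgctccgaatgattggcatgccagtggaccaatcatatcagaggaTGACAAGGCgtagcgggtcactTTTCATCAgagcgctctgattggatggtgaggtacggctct
Gars: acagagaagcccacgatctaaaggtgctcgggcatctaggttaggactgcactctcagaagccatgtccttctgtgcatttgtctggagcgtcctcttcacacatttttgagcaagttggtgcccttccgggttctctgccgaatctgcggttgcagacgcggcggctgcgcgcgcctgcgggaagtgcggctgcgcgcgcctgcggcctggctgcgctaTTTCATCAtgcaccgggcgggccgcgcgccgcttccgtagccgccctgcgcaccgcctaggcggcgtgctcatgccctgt
Tars: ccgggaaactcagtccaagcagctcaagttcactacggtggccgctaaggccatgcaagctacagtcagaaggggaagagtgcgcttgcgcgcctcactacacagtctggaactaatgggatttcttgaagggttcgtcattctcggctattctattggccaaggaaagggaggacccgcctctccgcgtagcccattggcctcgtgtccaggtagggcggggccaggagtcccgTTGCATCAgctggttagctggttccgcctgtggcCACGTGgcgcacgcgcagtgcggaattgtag
Iars: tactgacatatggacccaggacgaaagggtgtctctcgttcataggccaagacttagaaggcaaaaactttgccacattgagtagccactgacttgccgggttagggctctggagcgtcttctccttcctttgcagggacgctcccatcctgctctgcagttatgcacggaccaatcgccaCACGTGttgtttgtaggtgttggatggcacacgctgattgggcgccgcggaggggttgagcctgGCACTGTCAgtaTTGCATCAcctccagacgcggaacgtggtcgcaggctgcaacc
TGATGNAA lay in the windows of Aars, Gars, Iars, Tars and Yars, which are 5 of the 13 cytosolic members with a promoter, and in 0 of the 14 mitochondrial ones. It lay in 4.51% of the 27025 genes with a promoter in the table, and in 3.97% of all 32851 promoters. Aars held it at 2 places, and the Yars match began at base 4 of the transcript. TGACNNNGC was found in 3 cytosolic members (Aars, Iars, Mars) and 3 mitochondrial members (Aars2 in both windows, Lars2, Nars2). It was found in 14.0% of the genes with a promoter (12.4% of all promoters). CACGTG was found in Aars, Farsb, Iars and Tars and in mitochondrial Ears2, against 8.09% of the genes with a promoter (7.15% of all promoters). The Cars2 window held none of these motifs. No match overlapped another, and a match is a description of the letters and not a site shown to be bound.

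Levels below are log2 signals minus the 75th percentile of the same array, so 0 is the brightness of that percentile. A level can be compared between arrays for 1 gene, but not between genes. Signals at the percentile ran from 498 to 626 over the 8 arrays, and between 43.9% and 54.1% of probes were well above background. Replicate arrays correlated at 0.992 to 0.997 over genes, and their log2 difference had an SD of 0.26 in the isorhamnetin group, 0.44 in tamarixetin, 0.37 in Torin1 and 0.26 in control. The 9 macrophage markers tested, Cd68 and Csf1r among them, were above background on all 8 arrays. Fibroblast markers were above background on 0 of 8 arrays, as were Cd3g, Cd8a, Ms4a1, Epcam and Krt8. Of markers of other cells, Cd3e (T cells), S100a8 and Elane (neutrophils) were above background on all 8 arrays. S100a8 was at -0.62 and -0.71 with Torin1, above both control arrays, of which the higher was at -0.95, and Elane at -0.60 and -0.64, against 0.53 and 0.41 in control. These markers moved in opposite directions, their summed level was 1.25 to 1.31 times the percentile with Torin1, against 1.83 to 1.97 in control, and their part in the results was not tested. Row 2 of the slide held tamarixetin and Torin1, and row 1 held isorhamnetin and control, so position cannot be told apart from group in Torin1 against control, tamarixetin against control or isorhamnetin against tamarixetin.

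With Torin1 most cytosolic synthetase genes were lower than in control, and the mitochondrial genes lay on both sides of it. A gene was called at an adjusted p below 0.05 over all genes tested. Against control, 25 of the 36 members were called, 21 lower and 4 higher, where 48.7% of all genes tested were called (27.4% lower, 21.3% higher). Among the 20 cytosolic genes 16 were lower and 1, Qars, was higher. The median cytosolic log2 change was -0.47, a 1.38-fold lower level, where the median of all genes was -0.06. Among the 16 mitochondrial genes 5 were lower and 3 higher, and their median change was -0.016. The levels of the Torin1 and control arrays did not overlap for 20 of 20 cytosolic genes and 13 of 16 mitochondrial genes, where 78.6% of all genes did not overlap. These signals come from whole cultures, so fewer expressing cells and less RNA per cell cannot be told apart.

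**Figure D1:**
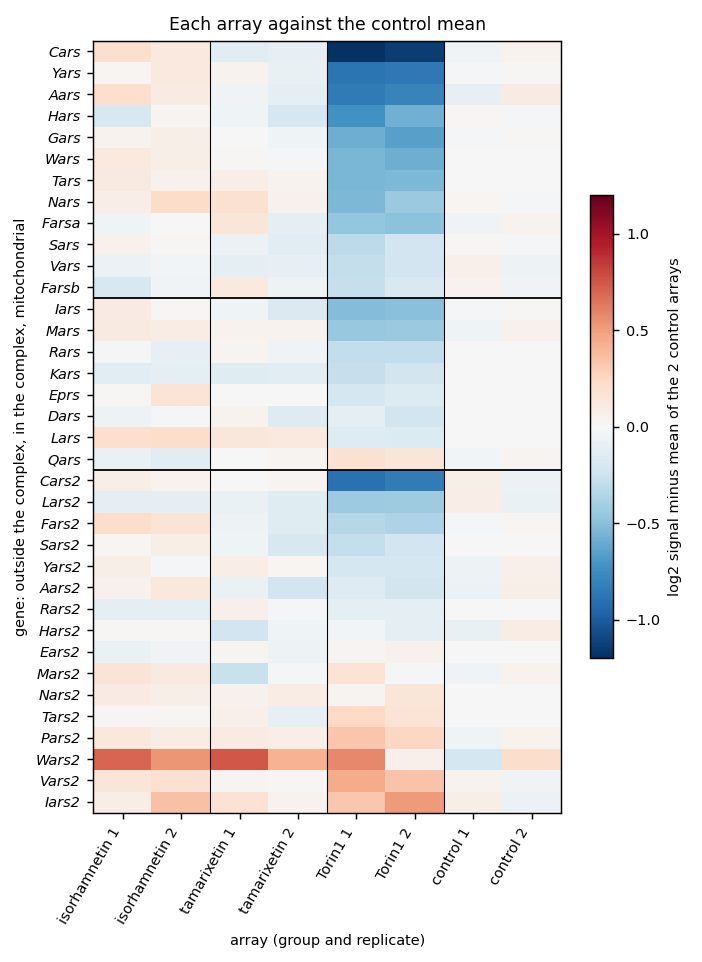
Level of each of the 36 genes on each array minus the mean of the 2 control arrays (log2 scale, colour), with genes in rows and arrays in columns. Both Torin1 columns are blue from Cars down to Lars, and Cars2 is the mitochondrial row with the deepest blue.

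The largest change of the 36 was that of a cytosolic gene outside the complex, Cars. Of the 12 such genes 11 were lower and 0 higher, with a median of -0.56 (1.47-fold lower). Cars, which charges cysteine tRNA, stood at 3.50 and 3.56 on the Torin1 arrays, against 4.65 and 4.74 on the control arrays. Both Torin1 arrays were below all 6 others, which lay between 4.55 and 4.88. The change was 2.24-fold (log2 -1.16 ± 0.06 SE, adjusted p = 0.000148), and the 3 Cars probes gave log2 changes from -1.28 to -1.16. Yars, the tyrosine enzyme, was at 2.45 and 2.47 with Torin1, against 3.32 and 3.34 in control, 1.83-fold lower (log2 -0.87 ± 0.07, adjusted p = 0.000427). Aars charges alanine tRNA and has an editing site that removes wrongly attached serine and glycine. It was at 3.59 and 3.63 with Torin1, against 4.34 and 4.53 in control, 1.77-fold lower (log2 -0.82 ± 0.08, adjusted p = 0.000909). For both genes the groups were apart by far more than the replicates of either.

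Hars, the histidine enzyme, was at 2.54 and 2.68 with Torin1, against 3.28 and 3.24 in control (log2 change -0.65 ± 0.10 SE, adjusted p = 0.00441). Gars, the glycine enzyme, was at 6.71 and 6.64 with Torin1, against 7.28 and 7.31 in control (-0.62 ± 0.05, adjusted p = 0.000578). Wars charges tryptophan tRNA and is known as an interferon-induced gene. It was at 4.37 and 4.33 with Torin1, against 4.91 and 4.93 in control (-0.57 ± 0.05, adjusted p = 0.00062). Tars, the threonine enzyme, was at 4.54 on both Torin1 arrays, against 5.08 and 5.09 in control (-0.54 ± 0.05, adjusted p = 0.000663). In all 4 genes the 2 groups were apart by several times the gap between replicates. Nars, the asparagine enzyme, was at 2.72 and 2.82 with Torin1, against 3.29 and 3.24 in control (-0.49 ± 0.08, adjusted p = 0.00471).

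Phenylalanyl-tRNA synthetase is built of α and β subunits, encoded by Farsa and Farsb. Farsa was at 3.64 and 3.60 with Torin1, against 4.06 and 4.14 in control (log2 change -0.48 ± 0.09, adjusted p = 0.00862). It was not called when control replicate 2 was left out (adjusted p = 0.0509). Farsb was not called: its change was -0.23 (95% interval -0.45 to -0.0038, adjusted p = 0.0854), although both Torin1 arrays, at 3.30 and 3.39, were below the control arrays at 3.61 and 3.54. Whether the 2 subunits differed in their change was not tested. The serine enzyme Sars (-0.27, adjusted p = 0.0114) and the valine enzyme Vars (-0.26, adjusted p = 0.0185) were lower by less. Sars was not called without control replicate 1 or Torin1 replicate 1 (adjusted p = 0.0549 and 0.0648), nor Vars without control replicate 1 or either Torin1 replicate (adjusted p between 0.0530 and 0.0926).

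Of the 8 cytosolic genes whose enzymes belong to the multisynthetase complex, 5 were lower and 1 higher, with a median of -0.22. The median of the 8 lay 0.24 and 0.22 below the control mean on the Torin1 arrays. That of the 12 genes outside the complex lay 0.55 and 0.56 below it. Both medians use 1 probe per gene, and other probes gave larger changes for some genes of each set. Examples are Rars in the complex (to -0.50) and Wars outside it (to -0.86). How this choice affects the gap between the medians was not tested. Iars, the isoleucine enzyme, was at 3.65 and 3.67 with Torin1, against 4.15 and 4.19 in control (log2 change -0.51 ± 0.06, adjusted p = 0.00185). Mars, the methionine enzyme, listed by RefSeq as Mars1, was at 2.58 and 2.59 with Torin1, against 2.99 and 3.10 in control (-0.45 ± 0.05, adjusted p = 0.00176). Both had Torin1 levels below every other array. Rars (arginine, -0.30, adjusted p = 0.0071) and Kars (lysine, -0.25, adjusted p = 0.00872) were also lower. Kars was not called without Torin1 replicate 1 (adjusted p = 0.0553).

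The other complex members lay nearer to 0 with the probes used. Other probes gave -0.30 for Lars and values as low as -0.32 for Eprs. Lars charges leucine tRNA and is also known as a leucine sensor for mTOR complex 1. Its change was -0.16 ± 0.04 (adjusted p = 0.0286), it was not called when any Torin1 or control array was left out (adjusted p from 0.0923 to 0.112), and quantile normalisation gave it a change of 0.018. Qars, the glutamine enzyme, was the only cytosolic gene above control, at 4.84 and 4.81 with Torin1, against 4.64 and 4.70 in control. Its change was 0.16 ± 0.05 (adjusted p = 0.0437), its other probe gave 0.055, and the mean of its probes was not called. The call was lost when any of the 8 arrays was left out (adjusted p from 0.0623 to 0.171), and scaling by the array median, which moves all genes alike by -0.23, gave -0.068. Relative to the median of all genes it was 0.22 higher in both scalings, which must give the same value because they differ by a shift of all genes. Eprs, the fused glutamate and proline enzyme, had a change of -0.19 (95% interval -0.35 to -0.02, adjusted p = 0.0617), and Dars, the aspartate enzyme, of -0.17 (-0.37 to 0.03, adjusted p = 0.129). Neither was called. By fold of the catalytic domain, the 9 class I genes had a median of -0.45 and the 10 class II genes of -0.49, with Eprs, which holds both folds, left out.

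**Figure D2:**
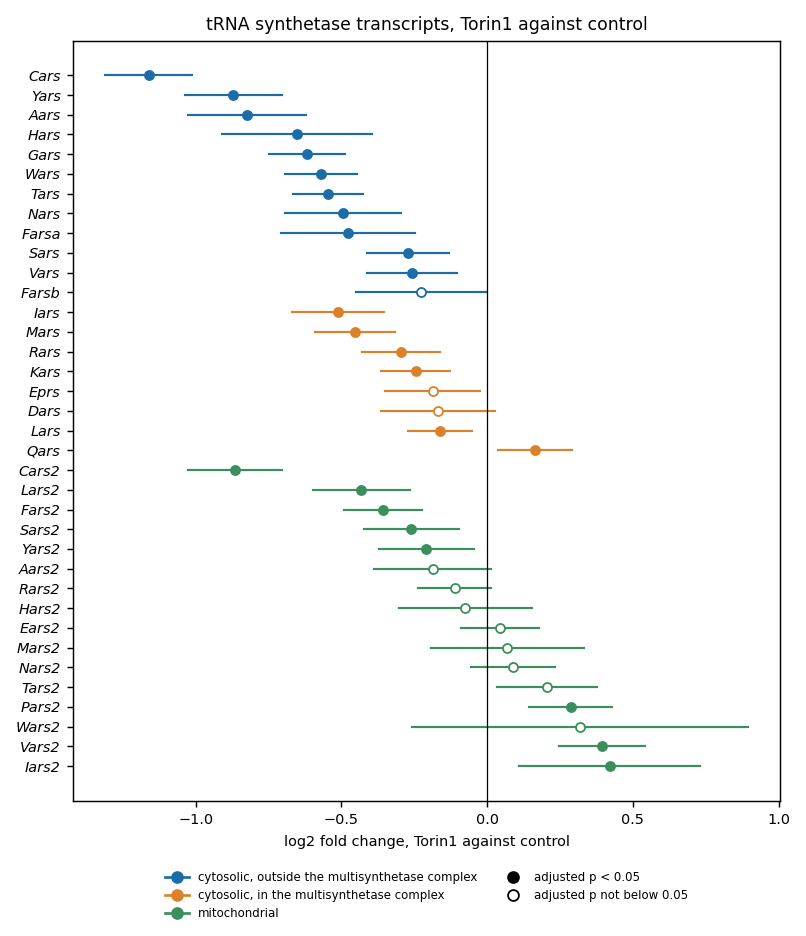
Log2 fold change with Torin1 against control for each gene, with 95% intervals from limma; filled points have adjusted p below 0.05 and colours give the compartment and the complex. The 12 genes outside the complex lie between -1.16 and -0.23, and the mitochondrial genes lie on both sides of 0. Qars is above 0 here and at -0.068 with scaling by the array median, and Lars is below 0 here and at 0.018 with quantile normalisation.

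Of the 16 mitochondrial genes 8 were called, a share close to the 48.7% of all genes. Cars2, the mitochondrial cysteine enzyme, was at -0.50 and -0.44 with Torin1, against 0.46 and 0.32 in control. It was 1.82-fold lower (log2 -0.86 ± 0.06, adjusted p = 0.000399), all 6 other arrays lay between 0.32 and 0.46, and its other probe gave a change of -0.53. The leucine enzyme Lars2 (-0.43, adjusted p = 0.00411) and the phenylalanine enzyme Fars2 (-0.36, adjusted p = 0.00369) were lower. Sars2 (serine, -0.26, adjusted p = 0.0214) and Yars2 (tyrosine, -0.21, adjusted p = 0.0446) were lower by less. The Sars2 call was lost without any Torin1 or control array (adjusted p from 0.0602 to 0.101), and the Yars2 call without any array but control replicate 1 (0.0583 to 0.188).

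The 3 mitochondrial genes that were higher are named for their direction after their values were seen. Vars2, the valine enzyme, was at 0.71 and 0.61 with Torin1, against 0.31 and 0.22 in control (log2 change 0.40 ± 0.06, adjusted p = 0.00364). Iars2, the isoleucine enzyme, was at 1.32 and 1.51 with Torin1, against 1.07 and 0.92 in control (0.42 ± 0.12, adjusted p = 0.0371). Its 3 probes gave changes from 0.24 to 0.69, and it was not called when any Torin1 or control array was left out (adjusted p from 0.0566 to 0.160). Pars2, the proline enzyme, averaged 1.34 ± 0.06 with Torin1, against 1.06 ± 0.05 in control (SD, n = 2 each), without overlap (0.29 ± 0.06 SE, adjusted p = 0.00974). Its other probe gave -0.14, so its direction rests on the probe used, and leaving out control replicate 1 or Torin1 replicate 1 lost the call (adjusted p = 0.0516 and 0.0571). With scaling by the array median 0 members were called higher.

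The remaining 8 mitochondrial genes were not called. Tars2 (threonine) had a change of 0.20 (adjusted p = 0.0549) and Aars2 (alanine) of -0.19 (adjusted p = 0.108). Tars2 was called in 6 and Aars2 in 2 of the 19 alternative settings. Rars2 (arginine), Hars2 (histidine), Ears2 (glutamate), Mars2 (methionine) and Nars2 (asparagine) had changes between -0.11 and 0.09. The probes of Ears2 differed in sign, ranging from -0.07 to 0.42, and those of Hars2 ranged from -0.58 to -0.07. Wars2, the tryptophan enzyme, had the least precise value, at -1.69 and -2.21 with Torin1, against -2.48 and -2.06 in control (0.32, 95% interval -0.26 to 0.89).

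Cytosolic and mitochondrial genes were paired where their symbols differed only by the final 2, which gave 13 pairs. Phenylalanine, glutamate and proline also have genes of both compartments, under other symbols, and were left out. There Farsa and Farsb changed by -0.48 and -0.23 and Fars2 by -0.36, and Eprs by -0.19, Ears2 by 0.04 and Pars2 by 0.29. The change of the log2 ratio of a pair was taken as the cytosolic change minus the mitochondrial change. With Torin1 the ratio was below control in 12 of the 13 pairs, without overlap of the groups in 11. It was above control in 1, also without overlap, and the median change was -0.58. Of all single genes 78.6% did not overlap with Torin1, and no such share was taken over ratios of other genes. For comparison, 9 of 13 ratios did not overlap with tamarixetin (5 lower, 4 higher) and 6 of 13 with isorhamnetin (3 lower, 3 higher), where the medians were 0.016 and 0.049. The change of the ratio with Torin1 was lowest for isoleucine at -0.93 and for tryptophan at -0.89, a value that rests on the imprecise Wars2. Cysteine, where both genes were lower, had -0.30. Serine had -0.01 with overlapping groups. Leucine had 0.27 with the probes used, but the other Lars probe gave a change of -0.30 and the other Lars2 probe -0.13, so its direction rests on the choice of probe. The ratios were not tested.

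**Figure D3:**
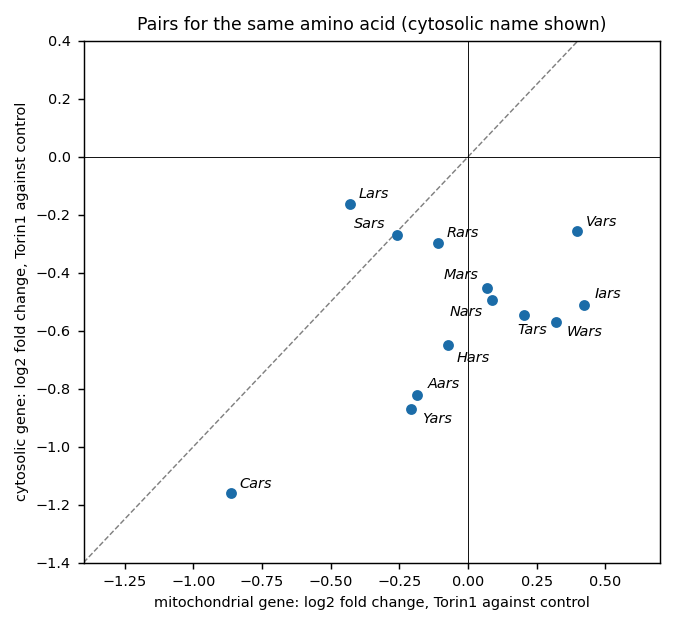
Log2 fold change with Torin1 against control of the cytosolic gene (vertical axis) and the mitochondrial gene (horizontal axis) of the same amino acid, 1 point for each of 13 pairs, with the dashed line at equal change. Of the points, 12 lie below the line, and leucine lies above it at a ratio change of 0.27.

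Within a row of the slide Torin1 could be set against tamarixetin, although the 2 groups lay in different columns. In that comparison 43.2% of all genes were called (20.4% higher, 22.8% lower). There 13 of the 20 cytosolic genes were lower and 0 higher, with a median of -0.45 (all genes -0.0027). The same 2 Torin1 arrays enter this comparison and the one with control, so the calls of both are given side by side and their agreement is no separate evidence. Qars was not called there (0.15, adjusted p = 0.0679). Of the mitochondrial genes Cars2, Fars2, Lars2 and Yars2 were lower and Pars2, Tars2 and Vars2 higher, with a median of -0.01. Cars was again the largest at -1.04 ± 0.06 (adjusted p = 0.000195). Tamarixetin-treated cells are not untreated cells, so this sets 2 treatments side by side.

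On the 2 Torin1 arrays the median of the 20 cytosolic genes lay 0.46 and 0.45 below the control mean, and the isorhamnetin and tamarixetin arrays lay between -0.08 and 0.04. For the mitochondrial genes every array lay between -0.07 and 0.07. The difference between the cytosolic and mitochondrial medians with Torin1 was -0.45, and it was between -0.46 and -0.33 in the 8 other settings that can move it, among them quantile normalisation, normexp and the leave-outs of Torin1 or control arrays.

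**Figure D4:**
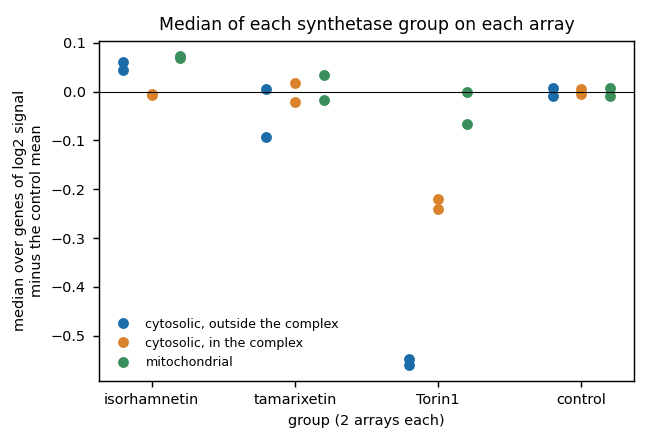
Median over genes of the level minus the control mean (log2 scale) on each of the 8 arrays, by group. The Torin1 arrays are at -0.55 and -0.56 for genes outside the complex and at -0.24 and -0.22 for genes in it, apart from all other arrays.

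Genes around the synthetases were read from 7 lists of 35 genes, all of them measured. Of all genes tested 48.7% were called with Torin1. In the lists of this paragraph 25% to 80% of the genes were called, on both sides of that share. With Torin1, 2 of the 3 scaffold genes of the complex were lower: Aimp2 (log2 change -0.52, adjusted p = 0.00287) and Eef1e1 (-0.27, adjusted p = 0.024). Aimp1 was not called (0.12, adjusted p = 0.0808). Of 5 genes that clear mischarged tRNA, Prorsd1 (-0.58), Dtd1 (-0.43) and Aarsd1 (-0.23) were lower and Ankrd16, known as a partner of the alanine enzyme in mouse, was higher (0.56, adjusted p = 0.00127). Xpot, the export receptor of tRNA, was lower (-0.28), as was Sepsecs, which completes selenocysteine on its tRNA (-0.46). Of the 4 genes for mitochondrial glutamine tRNA and formyl-methionine tRNA, Gatc was lower (-0.47) and 3 were not called. Of 8 mitochondrial translation factors, the elongation factors Tufm (-0.40) and Tsfm (-0.16) were lower and the release factor Mtrf1 was higher (0.21).

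The list of regulators and outputs of the amino-acid response held the largest changes of the 7 lists with Torin1: 9 of its 11 genes were lower and 1 was higher, with a median of -1.22. Of all genes tested 27.4% were lower and 21.3% higher. Atf4 itself was at 6.46 and 6.37 with Torin1, against 7.68 and 7.71 in control (log2 change -1.28 ± 0.07, adjusted p = 0.000158). Trib3, an ATF4 target that feeds back on it, was at -0.99 and -1.06 with Torin1, against 2.73 and 2.76 in control (-3.77 ± 0.11). Both Torin1 arrays were below both control arrays for each. Asns, the asparagine synthetase, was lower (-0.65, adjusted p = 0.00116), as were Chac1 (-3.30), Nupr1 (-1.71), Ddit3 (-1.43) and Sesn2 (-1.22). Eif4ebp1 (-0.35) and Eif2ak4, the kinase that senses uncharged tRNA (-0.18), were lower by less. Cebpb, a C/EBP factor, was higher (1.27, adjusted p = 0.000528), and Cebpg was not called (-0.15).

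With isorhamnetin 0 of the 36 members were called against control, where 0.562% of all genes were, and 6 (16.7%) had an unadjusted p below 0.05, as did 16.1% of all genes. The medians were 0.06 for cytosolic and 0.07 for mitochondrial genes, and the changes ran from -0.12 to 0.61. The 4 with the largest change follow. Wars2 was at -1.57 and -1.74 with isorhamnetin, against -2.48 and -2.06 in control (log2 change 0.61, 95% interval 0.04 to 1.19, adjusted p = 0.287). The control replicates differed by more than the change of any other member here, the probe lay in spot row 1, and the other Wars2 probe gave 0.04. Iars2 was at 1.07 and 1.35, against 1.07 and 0.92 in control (0.22, adjusted p = 0.449). Lars was at 5.04 and 5.05, against 4.85 and 4.84 in control (0.20, 95% interval 0.09 to 0.31, adjusted p = 0.129). Fars2 was at 3.22 and 3.18, against 2.99 and 3.03 in control (0.19, adjusted p = 0.199). None of the 4 passed the test. Groups did not overlap for 29 of the 36 members, where 51.1% of all genes did not overlap. Of the 36 intervals, 34 lay within 0.5 on either side of 0.

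With tamarixetin 0 of 36 members were called against control, where 0.0743% of all genes were, and 3 (8.33%) had an unadjusted p below 0.05, as did 13.9% of all genes. The median was -0.015 for cytosolic and 0.0033 for mitochondrial genes. Wars2 was at -1.52 and -1.85 with tamarixetin, against -2.48 and -2.06 in control (0.58, adjusted p = 0.357), and its other probe gave -0.08. Aars2 was at -1.45 and -1.59, against -1.44 and -1.30 in control (-0.15, adjusted p = 0.465). Hars2 was at 1.32 and 1.50, against 1.46 and 1.64 in control, with overlapping groups (-0.14, adjusted p = 0.538). Kars averaged 2.99 ± 0.01 with tamarixetin, against 3.13 on both control arrays (SD, n = 2) (-0.14, adjusted p = 0.31). No change passed the test, groups did not overlap for 16 of the 36 members (46.6% of all genes), and 35 of the 36 intervals lay within 0.5 on either side of 0. The 3 comparisons with control share the same 2 control arrays, so their values are given side by side and no overlap between them is counted.

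The isomers were compared directly at the same dose and time, as 1 pair of compounds. Isorhamnetin against tamarixetin gave 0 called members, where 0.799% of all genes were called, and 8 members (22.2%) had an unadjusted p below 0.05, as did 12.8% of all genes. Fars2 differed most, at 3.22 and 3.18 with isorhamnetin, against 2.95 and 2.87 with tamarixetin (log2 difference 0.29 ± 0.05 SE, 95% interval 0.16 to 0.42, adjusted p = 0.116). Cars was at 4.88 and 4.81 with isorhamnetin, against 4.55 and 4.59 with tamarixetin (0.27, 95% interval 0.12 to 0.42, adjusted p = 0.162). Mars2 (0.27, adjusted p = 0.38) and Aars2 (0.24, adjusted p = 0.32) followed in size. In all 4 genes the groups did not overlap, but 42.3% of all genes did not overlap either. The medians were 0.05 for cytosolic and 0.04 for mitochondrial genes, against 0.03 for all genes. For 34 of the 36 genes the 95% interval of the difference lay within 0.5 on either side of 0, and the exceptions were Wars2 (-0.54 to 0.61) and Mars2 (0.0048 to 0.53). These intervals bound the difference between the isomers, and do not show that they acted alike.

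**Figure D5:**
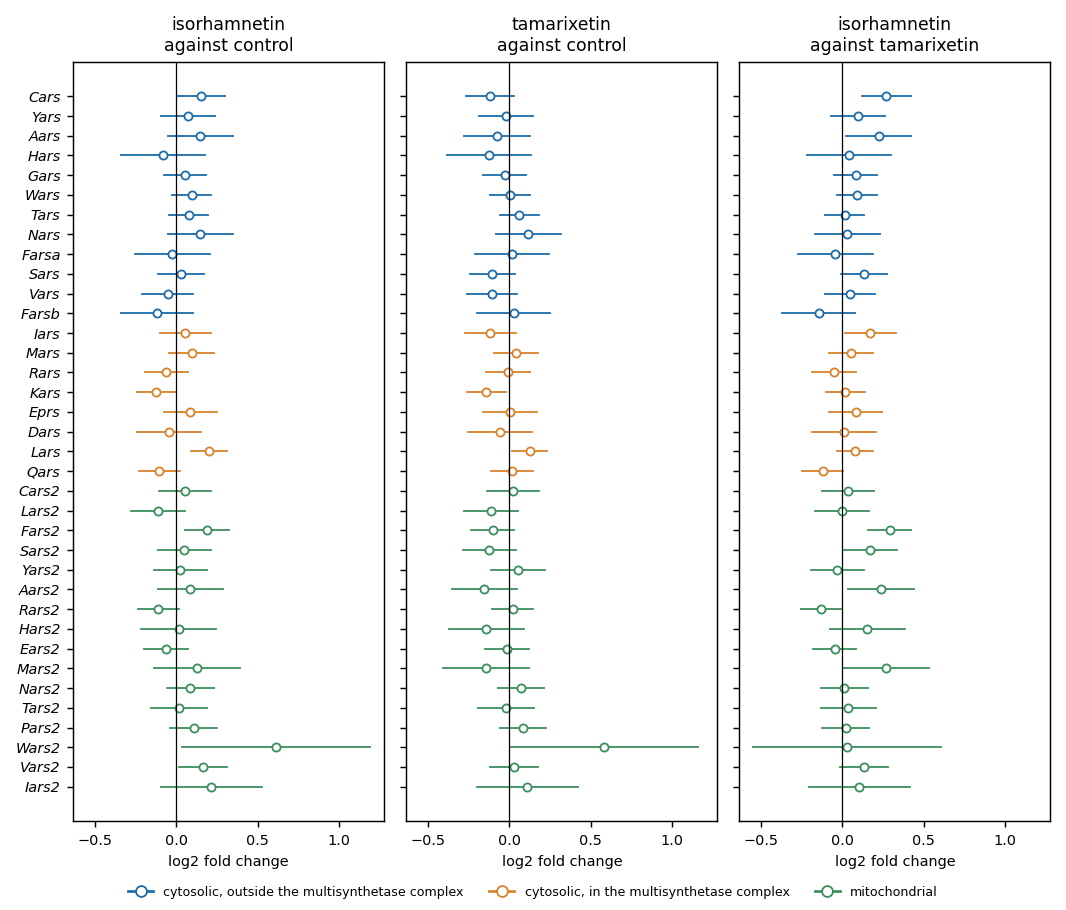
Log2 fold changes with 95% intervals from limma for isorhamnetin against control, tamarixetin against control and isorhamnetin against tamarixetin, for the 36 genes in the same order; open points have adjusted p not below 0.05. No point is filled, and Wars2 has the widest interval in each panel.

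In the 7 lists 0 genes were called with either flavonol or between them. The amino-acid response list had a median of 0.09 with isorhamnetin and -0.11 with tamarixetin against control, and of 0.21 between isorhamnetin and tamarixetin. In the last comparison 8 of its 11 genes had an unadjusted p below 0.05, against 12.8% of all genes. Against control 6 of the 11 did with isorhamnetin (16.1% of all genes) and 2 with tamarixetin (13.9% of all genes).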

How the data were processed

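RNA of 8 cultures (4 groups, 2 replicates each) was read on 8 single-colour arrays on 1 slide in 1 scan. Per the file headers, the signal is a background-subtracted, spatially detrended intensity from Agilent Feature Extraction 10.7.1.1, not scaled between arrays. The authors also deposited log2 values: log2 signal minus each array's 75th percentile and each probe's median gave them within 0.01 for 99.8% of probes. Outlier spots were dropped (323 probes lost). Probes well above background on both arrays of a group were kept (27562), and of several probes of a gene the brightest was used. RefSeq (GRCm38.p6) named 32994 of 56605 probes. The header names another build, so probes have no coordinates here; those of promoter windows are RefSeq's.

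The log2 signal minus the array's 75th percentile was tested with limma 3.58.1 in R 4.3.3 (lmFit, eBayes, all 8 arrays, 4 residual degrees of freedom). P values are two-sided, adjusted by Benjamini-Hochberg over 21528 genes (12935 with a symbol), and called below 0.05. SE and 95% intervals are from this fit. On data simulated for Torin1 against control, with 200 of 21528 genes changed, it recovered 21.5% of log2 changes of 0.5 and 67.5% of changes of 1. In the real comparison 10481 genes were called, which makes the adjustment of p milder. These shares therefore do not give the recovery in that comparison. The labels call the replicates biological, without saying how cultures were separated, so p values measure the spread between these arrays.

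The members and lists were chosen with earlier results of these data known. Array values are given for the called members with the largest changes, at most 12 per comparison, and for the 4 largest changes where fewer than 4 were called in a comparison with control. Those of Qars, Vars2, Iars2, Pars2, Farsb and Wars2 with Torin1, and of Fars2 and Cars between the isomers, were added after their values were seen. Alternatives were quantile and median scaling, normexp (offset 50, median pixel signal), other filters, the mean of probes, only the groups compared, trend and robust eBayes, the authors' values, a replicate block and leaving out each array.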

Additional observations from a re-analysis of the deposited data

How the results depend on the processing

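Of the 25 members called with Torin1, 13 were called under all 19 alternatives: Aars, Cars, Gars, Hars, Iars, Mars, Nars, Tars, Wars, Yars, Cars2, Fars2 and Lars2. The count was 15 without a filter (1 higher, 14 lower), where more genes were tested, and 16 to 24 with an array left out, lowest without Torin1 replicate 1. It was 22 with quantile normalisation (5 higher, 17 lower), 23 with normexp (2 higher, 21 lower) and 27 with scaling by the array median (0 higher, 27 lower). That scaling rests on signals of 21.4 to 28.2, near background, and moved the median of all genes by -0.23 with Torin1 and -0.10 with tamarixetin. Relative to all genes the cytosolic median with Torin1 was -0.41 and the mitochondrial 0.04, which this scaling cannot change because it moves every gene alike. With quantile normalisation they were -0.28 and 0.05. Lars reversed with quantile normalisation (0.018, adjusted p = 0.779), for a cause that was not tested. Qars reversed with median scaling (-0.068, adjusted p = 0.517), by the shift of all genes.

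Against control with isorhamnetin, trend and robust eBayes called 1 member, Lars (adjusted p = 0.0432), and 465 of all 21528 genes. Between the isomers, 1 was called without a filter (Fars2, adjusted p = 0.038) and 2 with trend and robust eBayes (Cars and Fars2, adjusted p = 0.0461 and 0.0258). Over all genes 14016 of 45380 were called without a filter and 264 of 21528 with trend and robust eBayes. With an array left out the count stayed at 0 in these comparisons, and with tamarixetin it was 0 in every setting run. Replicate numbers did not pair the arrays: deviations of same-numbered arrays correlated between -0.13 and 0.08. With the replicate block 21 members (9477 of all 21528 genes) were called with Torin1 and 0 members in the other comparisons. Swapping the tamarixetin numbers gave 0 between the isomers. That swap, and leaving out the first 48 spot rows (25 of 35 members and 9712 of 19324 genes called with Torin1), were chosen after seeing the data.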
